A study of Mus musculus with 27 samples.

Results

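The comparison described here is the first step of embryoid body differentiation within a single line that carries a knockout of Quaking: 3 Quaking KO libraries at day 3 against 3 Quaking KO libraries at day 0, chosen by their labels, 6 of the 27 libraries of the series. The line was made on the E14 background, a male mouse embryonic stem cell line, and the labels give neither the edited allele nor the number of clones, so the knockout and the clone cannot be told apart. Day 0 is the stem cell culture and day 3 the early embryoid body, an aggregate in which stem cells leave pluripotency and begin to form germ layers. For the question whether the knockout line changed as its parent did, 3 wild-type E14 libraries at day 3 and 3 at day 0 were set beside them, and the change in a line labelled Sam68 KO is quoted for a few genes. Total RNA depleted of ribosomal RNA was sequenced as paired reads, and expression is given as CPM, a gene's counts scaled to a common library size, in the order of replicates 1, 2 and 3.

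Quaking, the product of Qk, is an RNA-binding protein of the STAR family (signal transduction and activation of RNA) that acts in splicing, RNA stability and translation. It is best known from myelin and smooth muscle, and the family also holds Sam68, the product of Khdrbs1. Mouse embryonic stem cells are kept in a naive state by a network of transcription factors such as Klf4, Esrrb and Tfcp2l1. On differentiation they pass through a formative or primed state like that of the postimplantation epiblast, marked by Fgf5, Otx2 and Dnmt3b. Wnt, Nodal and FGF signals then turn on genes of the primitive streak, the site in the embryo where mesoderm and endoderm arise.

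The 3 day 3 libraries held 68843085 to 71424720 counts and the 3 day 0 libraries 63300722 to 66448041, and the median tested gene was counted 540 times in a library. The common biological coefficient of variation was 5.2%. Replicate 1 at day 3 stood apart from the other day 3 libraries of the line. Mitochondrial genome transcripts took 12.3% of its counts, against 6.32% in each of the other day 3 libraries and 12.2 to 16.5% in the 3 day 0 libraries. All 11 primitive streak genes that rose had their lowest day 3 value in it, and what part the library's composition had in these values was not tested. In wild type, replicate 1 at day 3 was also the library with the most mitochondrial counts, at 10.7% against 7.30% and 6.48% in the other day 3 libraries. Replicate 1 was highest at day 0 too, with 16.5% against 12.2% and 12.9% in the Quaking KO line. In wild type at day 0 it had 15.4% against 13.1% and 12.7%. What replicates of the same number share is not given. Without replicate 1 of the Quaking KO line at day 3, 14452 genes were called in place of 14270. The stem cell genes Pou5f1, Sox2, Nanog, Esrrb, Zfp42 and Klf4 were counted in every day 0 library at the levels given below. They were counted in every day 3 library too, at lower levels, so being counted does not by itself tell the days apart.

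The Qk transcript was still counted in the knockout line, at 118, 110 and 105 CPM at day 3 and 155, 137 and 146 CPM at day 0. The groups did not overlap, and Qk fell between the days, with a log2 fold change (log2FC) of -0.40 ± 0.05 (SE, adjusted p = 6.41e-06, edgeR quasi-likelihood test). Wild-type cells held 220, 219 and 205 CPM at day 3 and 224, 218 and 213 CPM at day 0. Qk was therefore lower in the knockout line than in wild type on both days, by a log2FC of -0.95 at day 3 (adjusted p = 4.86e-10) and -0.58 at day 0 (adjusted p = 6.83e-08). A count over the whole gene does not show where the transcript was altered.

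Of the 5 STAR genes 3 rose, 2 of them by at least 2-fold, Qk alone fell and 1 was not called. Khdrbs1, which encodes Sam68, rose to 144, 172 and 159 CPM at day 3, against 63.9, 69.6 and 70.6 CPM at day 0 (log2FC 1.22 ± 0.06, adjusted p = 1.06e-10). In wild type its log2FC was 0.72, and the difference between the lines, 0.50 ± 0.08, passed the test (adjusted p = 0.000219). At day 3 the difference between the lines in Khdrbs1 was 0.07 and did not pass the test (adjusted p = 0.537). At day 0 the knockout line was lower, by a log2FC of -0.43 (adjusted p = 1.08e-05). Khdrbs3, which encodes the related splicing regulator T-STAR, rose by a log2FC of 0.31. Khdrbs2 also rose, at low levels, with 0.219 to 0.246 CPM at day 3 and 0.0472 to 0.102 CPM at day 0. Sf1, a branch point binding protein of the spliceosome, did not pass the test (log2FC -0.04, adjusted p = 0.319).

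Most of the transcriptome moved. Of 19064 genes tested, 14270 were called at an adjusted p under 0.05 (74.9%), with 7191 higher at day 3 (37.7%) and 7079 lower (37.1%). With a change of at least 2-fold as well, 5926 were called (31.1%), 2947 higher (15.5%) and 2979 lower (15.6%). The median log2FC over all tested genes was 0.01. As most genes were called, the counts for the gene lists below are also given for changes of at least 2-fold, to be read against these shares.

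Genes nearly silent in the stem cells made up the largest rises. Fgf5, the growth factor that marks the primed epiblast, had 83.8, 96.7 and 102 CPM at day 3 and 0.0339, 0 and 0.0472 CPM at day 0 (log2FC 11.69 ± 0.18). Fgf8 and Wnt8a, ligands made in and near the primitive streak, rose by a log2FC of 9.54 and 9.49, and Rspo3, a secreted enhancer of Wnt signalling, by 9.95. With 2 counts over the day 0 libraries, the ratio for Rspo3 was 1190, with a 95% counting interval of 321 to 9590. Vrtn, which in mammals is linked to vertebral number, had 156, 197 and 174 CPM at day 3 against 0.203, 0.325 and 0.173 CPM at day 0. Genes better known from neurons were among them too: Gabra3, a subunit of the GABA-A receptor, had 4.65, 4.54 and 5.74 CPM at day 3 and no count at day 0, at least 311-fold higher, taking 3 counts over the day 0 libraries as the floor. On the same floor the protocadherin Pcdh11x was at least 105-fold higher and the gap junction gene Gjd2 at least 76.2-fold higher. The ubiquitin ligase gene Trim67 rose by a log2FC of 9.65. The protease gene Adamts6, with 3 counts at day 0, rose with a ratio of 891 (95% counting interval 297 to 4210), and the chemokine gene Ccl20 had 0.627, 1.28 and 1.23 CPM at day 3 with no count at day 0.

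Among the genes that fell furthest, Inhbb, the beta B subunit of activin and inhibin, had 0.0729, 0.109 and 0.109 CPM at day 3 against 114, 110 and 112 CPM at day 0 (log2FC -10.14 ± 0.09). Emp1, an epithelial membrane protein, had 0.117, 0.0816 and 0.137 CPM at day 3 and 111, 117 and 108 CPM at day 0. Laptm5, a lysosomal membrane protein better known from blood cells, fell by 8.17 on the log2 scale. Nkx6-3, a homeobox gene with 3 counts at day 3, was lower with a day 0 over day 3 ratio of 1180 (95% counting interval 404 to 5730). On the same scale Stra8, a gene of meiotic entry with 1 count at day 3, had a ratio of 721 (126 to 27800) and Ceacam20, with 2 counts, a ratio of 421 (113 to 3400). Msln, which encodes mesothelin, fell by 9.48 and the myosin gene Myo1f by 9.07 on the log2 scale. Xaf1 and the keratin genes Krt42 and Krt17 were also among them, with log2FC between -8.10 and -7.54. In all of these the 6 libraries fell into 2 groups that did not overlap, which the rule that named them required.

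**Figure D1:**
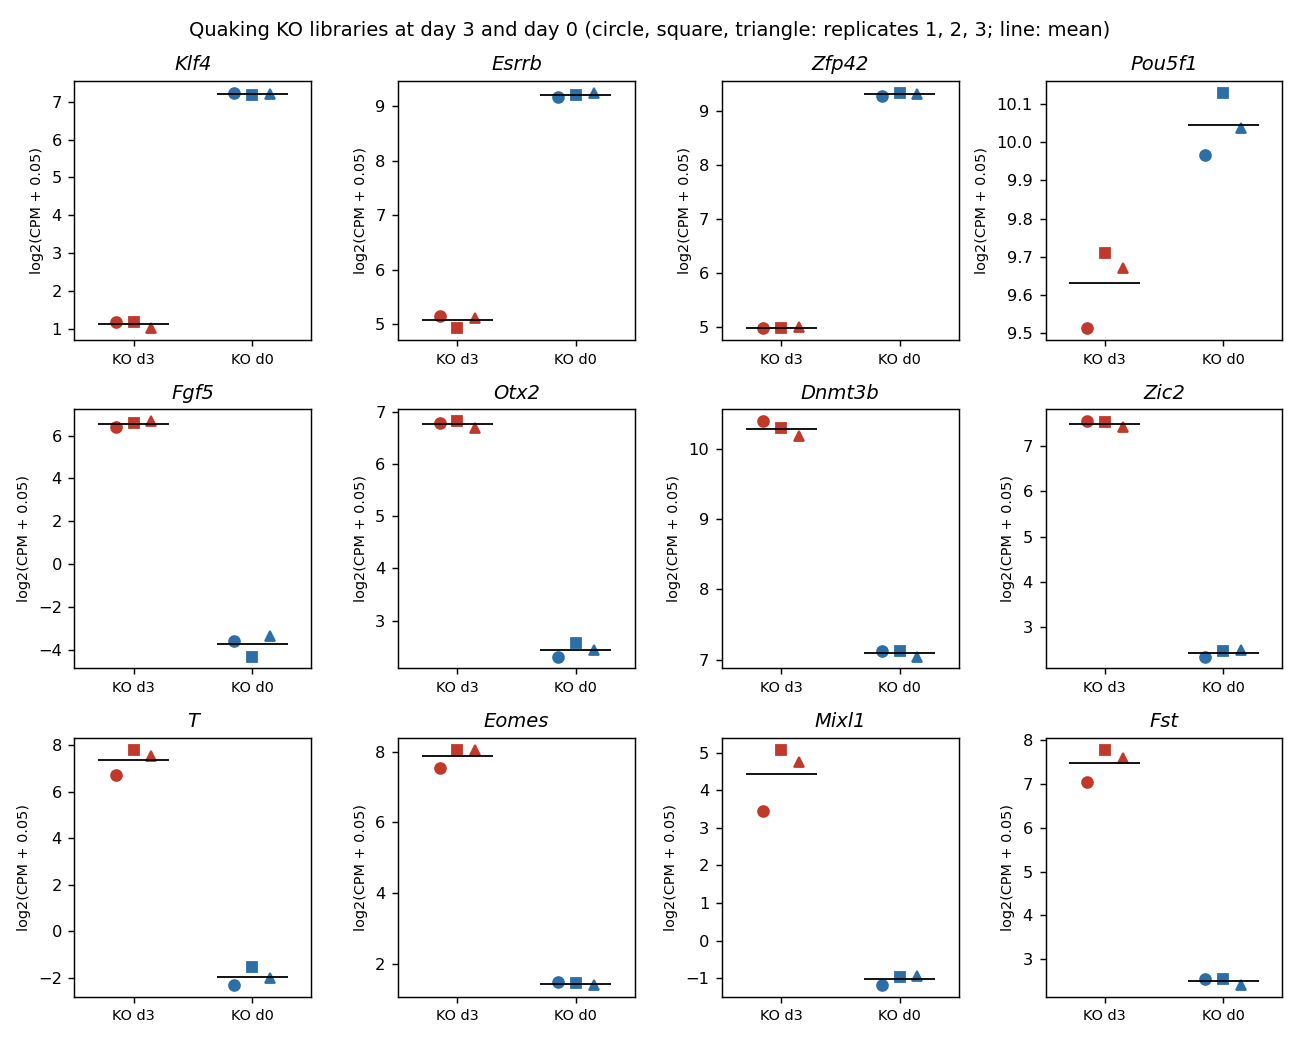
Expression of 12 genes in each Quaking KO library, as log2(CPM + 0.05), with day 3 on the left and day 0 on the right of each panel. Symbols stand for replicates 1, 2 and 3 and lines for the mean of 3 libraries. Klf4, Esrrb and Zfp42 were lower at day 3, while the primed and primitive streak genes were higher, with replicate 1 lowest at day 3 for T, Eomes, Mixl1 and Fst.

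Naive pluripotency genes fell together. All 18 members of the naive pluripotency list were tested, 17 fell, 16 of them by at least 2-fold, where 15.6% of all genes did so, and the median log2FC was -3.65. Klf4 had 2.26, 2.23 and 2.00 CPM at day 3 against 150, 145 and 148 CPM at day 0 (log2FC -6.10 ± 0.06). Prdm14, a repressor that protects the naive state, fell by 5.61, Tcl1 by 5.09 and Tfcp2l1 by 4.52 on the log2 scale. Esrrb had 35.7, 30.5 and 34.9 CPM at day 3 and 576, 592 and 609 CPM at day 0, and Zfp42 (Rex1) 31.6, 31.7 and 32.2 CPM at day 3 and 618, 643 and 631 CPM at day 0. Nanog fell least of the called members, with 410, 443 and 402 CPM at day 3 and 555, 564 and 585 CPM at day 0 (log2FC -0.44 ± 0.04). Dppa3 (Stella) was the only member not called in the 6 libraries, at 0.554, 0.476 and 0.574 CPM at day 3 and 0.542, 0.542 and 0.456 CPM at day 0, and 15.7% of its sequence windows occur in other genes.

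Genes that stay on in both pluripotent states changed less. Of 14 core pluripotency genes 12 fell, 6 of them by at least 2-fold, and 1 rose. Pou5f1, which encodes Oct4, had 731, 838 and 815 CPM at day 3 against 1000, 1120 and 1050 CPM at day 0 (log2FC -0.41 ± 0.06). Sox2 had 81.5, 87.8 and 89.8 CPM at day 3 and 225, 226 and 212 CPM at day 0. Dnmt3l, a cofactor of the de novo DNA methyltransferases, fell furthest of the list, by 3.67, followed by Gdf3 and Utf1 at 1.70 and 1.65. Lin28a, an RNA-binding protein that blocks let-7 processing, rose by a log2FC of 0.43, and Sall4 did not pass the test (log2FC 0.03, adjusted p = 0.481).

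Formative and primed epiblast genes rose together: 13 of 15 rose, 11 by at least 2-fold, and the median log2FC was 3.01. Beside Fgf5, the transcription factor gene Zic2 had 187, 184 and 170 CPM at day 3 against 5.07, 5.49 and 5.60 CPM at day 0. Otx2, a homeobox gene of the epiblast, had 111, 113 and 104 CPM at day 3 and 4.91, 5.86 and 5.36 CPM at day 0. Lef1, the Wnt effector, rose by a log2FC of 4.85 and Sall2 by 3.76. Pou3f1 (Oct6) rose by 2.15, with 26.3, 21.8 and 21.3 CPM at day 3 and 5.63, 5.27 and 4.78 CPM at day 0. Against the list, Foxd3 fell by 1.37 on the log2 scale. Epha2 also fell, by 0.17 (adjusted p = 0.028), a call that was lost without replicate 1 at day 3 (log2FC -0.08, adjusted p = 0.138).

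Primitive streak genes were on at day 3 in all 3 libraries. Of 16 members 14 were tested, 11 rose, all of them by at least 2-fold, and the median log2FC was 5.81. T (Brachyury), the defining gene of the streak, had 105, 222 and 184 CPM at day 3 and 0.153, 0.294 and 0.204 CPM at day 0 (log2FC 9.59 ± 0.35). Eomes had 186, 267 and 264 CPM at day 3 against 2.73, 2.67 and 2.58 CPM at day 0, and Mixl1 had 10.9, 33.7 and 26.9 CPM at day 3 against 0.390, 0.465 and 0.472 CPM at day 0. Replicate 1 was lowest at day 3 in each of these, and without it the log2FC was 9.85 for T, 6.65 for Eomes and 6.09 for Mixl1. The streak genes Evx1 and Gsc rose by 6.58 and 6.56, and Lhx1, which is active in the anterior streak, had only 0.379, 1.65 and 1.12 CPM at day 3. Genes of more advanced mesoderm were low: Mesp1 had 0.117, 1.10 and 0.588 CPM at day 3 and was not tested, Tbx6 was not called (log2FC 0, adjusted p = 0.991), and Mesp2 fell by 2.38 on the log2 scale. Cdx1 was called without replicate 1 at day 3 (log2FC 0.53, adjusted p = 0.0279), and its log2FC with all libraries was 0.23.

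In the lateral and cardiogenic mesoderm list 7 of 14 tested genes rose and 5 fell, 6 and 3 of them by at least 2-fold. Isl1, Etv2 and Twist1 rose by log2FC of 3.86, 2.72 and 2.36, while Kdr (the VEGF receptor Flk1) had 0.233, 0.449 and 0.506 CPM at day 3 against 0.796, 1.01 and 0.880 CPM at day 0. Of 10 tested definitive endoderm genes 7 rose and 2 fell, 5 and 1 of them by at least 2-fold, and the list summed to 1130 to 1210 CPM at day 3 and 102 to 115 CPM at day 0. Trh, which encodes the precursor of thyrotropin-releasing hormone, made most of this sum, with 945, 1010 and 970 CPM at day 3 and 64.1, 78.7 and 75.5 CPM at day 0 (log2FC 3.74). Foxa2, which is shared by the anterior streak and endoderm, had 14, 23.1 and 23.7 CPM at day 3 and 0.695, 0.635 and 0.660 CPM at day 0, and the tight junction gene Cldn6 rose by 3.90. Sox17 was not called, at 1.21, 1.13 and 1.29 CPM at day 3 and 0.898, 1.10 and 1.26 CPM at day 0, and Cer1, at 0.131 to 0.190 CPM at day 3 and no count at day 0, was too low to be tested. In the Hox and Cdx list 10 of 20 genes were tested, 6 rose and 1 fell, each by at least 2-fold. The rises were led by Hoxb1, which was at least 38.5-fold higher, and Cdx2, with 3.86, 6.53 and 5.80 CPM at day 3.

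**Figure D2:**
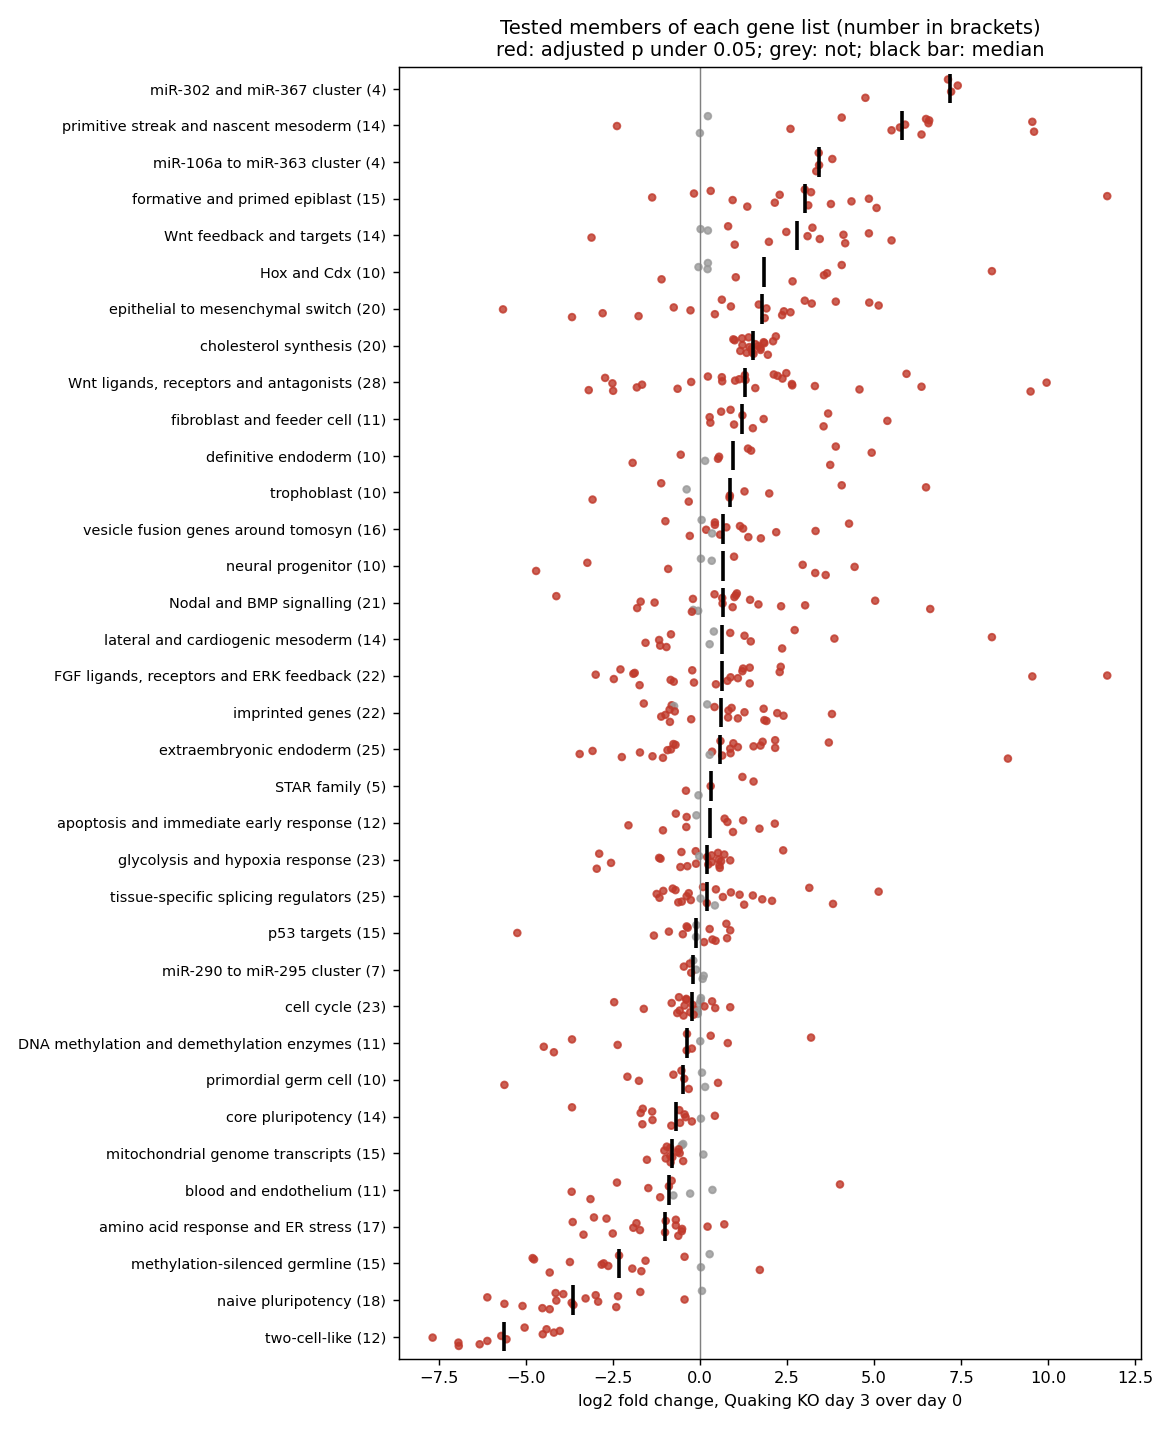
Log2 fold change (day 3 over day 0, Quaking KO) of each tested member of 35 gene lists, ordered by their medians. Red points passed an adjusted p of 0.05, grey points did not, and black bars are medians. The primitive streak and primed epiblast lists lie to the right, with medians of 5.81 and 3.01, and the naive and two-cell-like lists to the left, with medians of -3.65 and -5.63.

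Most Wnt signalling genes changed. All 28 ligands, receptors and secreted antagonists were tested, 20 rose and 8 fell, 17 and 6 of them by at least 2-fold. Wnt3, the ligand needed to form the streak, had 28.5, 39.1 and 35.6 CPM at day 3 against 0.491, 0.387 and 0.377 CPM at day 0, and Wnt5b rose by a log2FC of 4.58. Frzb, a secreted Wnt antagonist, rose by 5.93. On the other side Wnt6, the receptor gene Fzd5, the antagonist gene Sfrp1 and Wnt3a fell by 3.19, 2.72, 2.51 and 1.81 on the log2 scale. Among 14 feedback and target genes 11 rose, 10 of them by at least 2-fold, and the median log2FC was 2.78. Axin2, the negative feedback gene most often used as a readout of the pathway, had 111, 128 and 123 CPM at day 3 and 13.3, 12.8 and 12.3 CPM at day 0. Sp5 had 16.8, 31.3 and 28.1 CPM at day 3 and 0.593, 0.697 and 0.393 CPM at day 0, and Tnfrsf19, Lgr5, Nkd1 and Dkk1 rose by 4.17, 4.12, 3.09 and 2.48. Notum, which encodes a Wnt deacylase, went against the list and fell by 3.11, with 28.2% of its sequence windows shared with other genes.

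The promoters of 2 of these targets are shown as examples with more than 1 copy of the core sequence bound by TCF/LEF factors, the nuclear partners of beta-catenin. That of Dkk1 also holds 2 copies and is not shown. The window runs 250 bases before to 50 bases after the start of the gene on its own strand, from RefSeq on GRCm38.p6, with Sp5 at chr2:70474673-70474972 (plus strand) and Lef1 at chr3:131156044-131156343 (plus strand). The motif CTTTGA was searched on both strands and is in capitals, as TCAAAG where it lies on the opposite strand.
Sp5: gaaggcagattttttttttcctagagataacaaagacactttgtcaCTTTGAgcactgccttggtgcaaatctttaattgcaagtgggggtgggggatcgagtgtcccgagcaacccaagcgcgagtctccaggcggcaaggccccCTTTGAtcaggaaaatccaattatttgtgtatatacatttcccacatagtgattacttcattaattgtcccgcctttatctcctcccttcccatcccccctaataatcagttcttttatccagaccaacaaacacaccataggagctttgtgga
Lef1: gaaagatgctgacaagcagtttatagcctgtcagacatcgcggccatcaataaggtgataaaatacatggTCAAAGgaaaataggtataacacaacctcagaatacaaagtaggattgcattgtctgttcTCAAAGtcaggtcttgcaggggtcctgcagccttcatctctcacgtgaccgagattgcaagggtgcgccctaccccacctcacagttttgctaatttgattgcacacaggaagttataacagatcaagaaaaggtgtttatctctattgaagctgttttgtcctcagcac
Both carry 2 matches. The motif was found in 4 of the 8 feedback and target genes with a promoter in the table (50%) and in 4 of 13 primitive streak genes (30.8%). It was found in 16.0% of all 32851 promoters, and 18.2% of the 27025 genes in the table, which can have more than 1 promoter, held it in at least 1 of them. A match is a description of the letters in the window and says nothing of binding.

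Of 21 tested Nodal and BMP genes 13 rose and 6 fell, 8 and 4 of them by at least 2-fold. Nodal had 152, 165 and 156 CPM at day 3 and 84.1, 81.7 and 81.4 CPM at day 0, and its target and inhibitor genes Lefty1 and Lefty2 rose by log2FC of 3.02 and 2.33. Fst, which encodes the activin antagonist follistatin, had 133, 221 and 193 CPM at day 3 and 5.74, 5.75 and 5.24 CPM at day 0. Bmp4 had 3.35, 3.21 and 3.53 CPM at day 3 and 59.5, 58.3 and 57.8 CPM at day 0 (log2FC -4.12 ± 0.06). The BMP target Id1 fell by 1.30, whereas Id3, another BMP target, rose by 1.68.

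FGF ligands and the feedback genes of ERK signalling changed in both directions. Of 22 genes in this list 12 rose and 10 fell, 9 and 6 of them by at least 2-fold. Fgf5 and Fgf8 rose as given above, while Fgf4, the ligand of naive cells, had 29.2, 21.1 and 23.5 CPM at day 3 against 200, 194 and 193 CPM at day 0. Dusp4 and Dusp6, phosphatases induced by ERK that act on ERK kinases, rose by log2FC of 2.32 and 1.43, as did Spry1 (1.43) and the receptor gene Fgfr2 (1.09). Etv4, a transcription factor downstream of FGF, Fgfr3 and the inhibitor gene Spry4 fell by 2.28, 2.47 and 1.73.

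All 20 genes of the epithelial to mesenchymal switch were called, 14 higher and 6 lower, 11 and 4 of them by at least 2-fold. Esrp1, an epithelial splicing regulator, had 85.0, 88.3 and 82.3 CPM at day 3 and 2.61, 2.31 and 2.41 CPM at day 0 (log2FC 5.13 ± 0.06). The junction genes Cldn7 and Crb3 and the adhesion gene Epcam rose by 4.86, 3.21 and 1.69, and Grhl2, an activator of epithelial genes, had 50.1, 47.8 and 48.1 CPM at day 3 and 12.5, 13.6 and 12.8 CPM at day 0. Cdh1 (E-cadherin) rose by 0.63 and Cdh2 (N-cadherin) by 3.01, with Snai1, a repressor of Cdh1, at 3.08, 5.59 and 5.47 CPM at day 3 and 0.796, 0.775 and 0.755 CPM at day 0. Zeb1, another repressor of epithelial genes, had 2.38, 1.96 and 2.17 CPM at day 3 against 27.7, 27.3 and 27.7 CPM at day 0. The mesenchymal filament gene Vim and the integrin gene Itgb3 fell by 1.76 and 5.65.

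Because Quaking acts in splicing, other tissue-specific splicing regulators were listed. Of 25 genes 13 rose and 10 fell, 8 and 3 of them by at least 2-fold. Apart from Esrp1, Celf2 rose by a log2FC of 3.14, and Ptbp2 had 131, 141 and 128 CPM at day 3 against 37.6, 39.8 and 38.2 CPM at day 0. Mbnl2 and Nova2 fell by 1.24 and 1.16. Among 16 genes of vesicle fusion 12 rose and 2 fell, with 7 rises and no fall of at least 2-fold. Stxbp5, which encodes tomosyn, an inhibitor of vesicle fusion, had 65.8, 58.6 and 63.5 CPM at day 3 and 6.30, 5.93 and 6.53 CPM at day 0. Vamp8 rose by 1.75, Snap25 had 1.04, 0.898 and 0.971 CPM at day 3 and 0.0169, 0.0620 and 0.0629 CPM at day 0, and Nsf, the ATPase that recycles the fusion machinery, fell by 0.99. The fall of Vamp2 (log2FC -0.29) was lost in 4 of the 6 fits that left out a library, where the lowest and highest adjusted p were 0.0556 and 0.116.

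Counts at microRNA loci were looked at after their values were seen. The miR-290 to miR-295 cluster is the main microRNA cluster of mouse embryonic stem cells, and the miR-302 and miR-367 cluster comes on in the epiblast. A library of long RNA counts primary transcripts or fragments there, not mature microRNA. The mature sequences are given, from RefSeq on GRCm38.p6, because members of both clusters share their seed, bases 2 to 8 in capitals, which sets most of the target choice.
miR-291a-3p: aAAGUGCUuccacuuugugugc
miR-294-3p: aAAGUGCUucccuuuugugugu
miR-295-3p: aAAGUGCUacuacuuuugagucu
miR-302b-3p: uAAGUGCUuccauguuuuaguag
miR-302d-3p: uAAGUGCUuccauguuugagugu
miR-290a-3p: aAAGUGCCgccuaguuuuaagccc
miR-367-3p: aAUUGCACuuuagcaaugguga
miR-363-3p: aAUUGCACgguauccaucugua
miR-92a-3p: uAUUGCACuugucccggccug
The seed AAGUGCU is shared by 5 of them, of the miR-290 and miR-302 clusters, and AUUGCAC by miR-367-3p and by miR-363-3p and miR-92a-3p of the miR-106a to miR-363 cluster.

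The miR-302 loci rose, while no miR-290 locus changed by 2-fold. Mir302b had 1.30, 1.17 and 1.18 CPM at day 3 and 0.0169, 0 and 0 CPM at day 0, a ratio of 215 (95% counting interval 40.4 to 9000). Mir302a had 1.12, 0.789 and 1.09 CPM at day 3 and 0, 0 and 0.0157 CPM at day 0, a ratio of 191 (33.2 to 7420). All 4 tested loci of that cluster rose by at least 2-fold, Mir302c by at least 17.2-fold, while Mir302d, with 22 counts at day 3, was not tested. These loci lie within Larp7 on the opposite strand, and the strand setting of the deposited counts is not given in the sources used here. Larp7 itself had 89.3, 93.0 and 85.9 CPM at day 3 and 75.7, 77.4 and 76.4 CPM at day 0. In the miR-290 cluster 3 of 7 tested loci fell and none rose, where 37.1% of all genes fell and 37.7% rose. Mir291b fell furthest, with 12.1, 10.2 and 12.8 CPM at day 3 and 18.8, 15.3 and 14.3 CPM at day 0 (log2FC -0.46 ± 0.10), and the falls of Mir291a and Mir293 (-0.29 and -0.25) were lost in 4 and in 3 of the 6 fits that left out a library. Mir295 had 3.60, 3.49 and 4.32 CPM at day 3 against 3.68, 3.55 and 3.55 CPM at day 0.

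The wild-type line differed at the miR-290 loci. In wild type all 7 tested loci had a log2FC between -1.24 and -0.68, and Mir295 had 2.64, 2.00 and 2.15 CPM at day 3 and 5.12, 4.81 and 3.15 CPM at day 0. These 7 loci lie side by side on chromosome 7, so they are not independent of each other as a share over all genes would assume. The difference between the lines passed the test for 5 of the 7, higher in the Quaking KO line in each, against 9.45% of all genes. In the 12 fits that left out a library it was called for 2 to 7 of them, with the lowest count without replicate 3 of the Quaking KO line at day 0. For Mir290a it was 1.05 ± 0.19 (adjusted p = 0.000845), and Mir290a was higher in the knockout line than in wild type at day 3 by a log2FC of 0.68 and lower at day 0 by -0.37. In the Sam68-labelled line the same loci had log2FC between -1.55 and -1.32. The libraries of that line differed in make-up from those of the other lines at day 3 and day 0. Malat1 took 0.318 to 0.356% of their counts, against 0.097 to 0.148% in the Quaking KO and wild-type libraries. Histone genes took 0.533 to 0.664%, against 0.894 to 1.22%. What part this had in the values at these loci was not tested. Mir291a to Mir295 overlap an annotated transcript of Nlrp12 on the opposite strand, and Mir290a overlaps Mir290b. In the miR-106a cluster, on the X chromosome, all 4 tested loci rose by at least 2-fold. Mir18b had 3.02, 2.33 and 3.23 CPM at day 3 and 0.407, 0.217 and 0.189 CPM at day 0.

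All 20 cholesterol synthesis genes rose, 18 of them by at least 2-fold, against 15.5% of all genes, and the median log2FC was 1.52. Cyp51, the lanosterol demethylase, had 238, 246 and 243 CPM at day 3 and 52.5, 55.0 and 53.1 CPM at day 0 (log2FC 2.18 ± 0.04). Fdps, Sqle and Hmgcs1 rose by 2.10, 1.95 and 1.85. The smallest change among the 20 was that of Ebp (log2FC 0.96). In wild type the log2FC was 2.06 for Cyp51 and 1.84 for Hmgcs1. Of the 20 genes 3 had a higher change in the Quaking KO line than in wild type and none a lower one. Over all genes 9.45% had a higher change and 6.45% a lower one.

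Genes of the amino acid response and of endoplasmic reticulum stress did the opposite. All 17 were called, 15 lower and 2 higher, 9 of them lower by at least 2-fold, with a median log2FC of -1. Asns, asparagine synthetase, had 91.6, 94.0 and 90.6 CPM at day 3 against 581, 588 and 599 CPM at day 0 (log2FC -2.68 ± 0.04). Chac1 had 3.16, 2.39 and 2.60 CPM at day 3 and 31.9, 34.1 and 36.1 CPM at day 0, and Trib3 had 5.98, 6.45 and 5.85 CPM at day 3 and 60.1, 61.1 and 63.3 CPM at day 0. Both encode stress-induced proteins, one degrading glutathione and the other a pseudokinase. Atf4, the transcription factor at the head of the response, fell by 0.98 on the log2 scale. The 2 genes that rose were Ddit4 (log2FC 0.70) and Hspa5, the chaperone BiP (log2FC 0.22).

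The promoters of these genes are shown because one motif recurs among them, TGATGNAA, the composite element bound by CHOP and ATF4, searched on both strands and in capitals. Coordinates are of GRCm38.p6, Asns at chr6:7693160-7693459 (minus strand), Chac1 at chr2:119350992-119351291 (plus strand) and Trib3 at chr2:152344011-152344310 (minus strand), with the same window and source as above.
Asns: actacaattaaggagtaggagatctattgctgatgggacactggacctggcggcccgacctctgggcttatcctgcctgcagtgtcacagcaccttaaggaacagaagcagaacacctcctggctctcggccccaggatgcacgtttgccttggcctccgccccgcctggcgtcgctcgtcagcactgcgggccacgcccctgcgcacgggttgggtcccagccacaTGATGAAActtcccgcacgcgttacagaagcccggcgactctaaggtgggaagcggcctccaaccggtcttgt
Chac1: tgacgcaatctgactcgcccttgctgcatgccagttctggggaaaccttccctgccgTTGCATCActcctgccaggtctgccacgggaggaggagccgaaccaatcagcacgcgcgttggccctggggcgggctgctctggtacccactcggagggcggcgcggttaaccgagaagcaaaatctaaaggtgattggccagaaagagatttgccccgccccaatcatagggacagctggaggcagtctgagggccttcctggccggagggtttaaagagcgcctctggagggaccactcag
Trib3: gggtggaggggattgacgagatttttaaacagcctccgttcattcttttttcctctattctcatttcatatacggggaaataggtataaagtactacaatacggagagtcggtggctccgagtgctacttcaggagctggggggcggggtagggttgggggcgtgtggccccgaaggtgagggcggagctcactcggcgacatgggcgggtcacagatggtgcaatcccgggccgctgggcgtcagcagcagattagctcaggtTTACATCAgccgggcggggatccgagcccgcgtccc
In Chac1 and Trib3 the match lies on the opposite strand. The motif was found in 6 of 16 list members with a promoter in the table (37.5%), in 4.0% of all 32851 promoters and, over all promoters of a gene, in 4.5% of the 27025 genes. For the cholesterol genes the motif TCACNCCAC, a sterol regulatory element, was found in 1 of 14 genes with a promoter in the table, Hmgcs1, and in 1.4% of all genes.

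Of 23 glycolysis and hypoxia genes 12 rose and 10 fell, 1 and 5 of them by at least 2-fold. Pkm and Ldha rose by 0.56 and 0.54, whereas Vegfa had 5.73, 5.28 and 5.71 CPM at day 3 against 37.8, 44.6 and 47.3 CPM at day 0 and Pfkp fell by 2.55. In the cell cycle list 14 of 23 genes fell and 4 rose, and 2 changed by 2-fold or more. The larger of these falls was that of the cyclin gene Ccnd3, with 35.9, 37.0 and 40.0 CPM at day 3 and 198, 211 and 211 CPM at day 0. Cdkn1a, the p53 target that encodes the inhibitor p21, rose by 0.87, and the p53 target Gdf15 fell by 5.24. In the whole p53 target list 7 of 15 genes rose and 6 fell, with no rise and 2 falls of at least 2-fold. Among apoptosis and immediate early genes 6 of 12 rose and 5 fell, 3 and 2 of them by at least 2-fold, with Jun and Egr1 higher by 1.71 and 1.24 and Hrk lower by 2.05.

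Of 11 DNA methylation and demethylation enzymes 3 rose and 7 fell, 1 and 4 of them by at least 2-fold, and the median log2FC was -0.37. Dnmt3b, a de novo methyltransferase, had 1340, 1250 and 1160 CPM at day 3 and 140, 139 and 132 CPM at day 0 (log2FC 3.19 ± 0.06). Dnmt3a rose by 0.31 and Dnmt1, the maintenance enzyme, fell by 0.37. Tet2, which oxidizes methylcytosine, had 22.5, 19.1 and 19.2 CPM at day 3 against 463, 427 and 471 CPM at day 0, and Tet1 fell by 2.36. Zfp57, a protein that protects methylated imprints, fell by 4.19. Of 15 tested germline genes known to be silenced by promoter methylation, 12 fell, 11 of them by at least 2-fold, with Hormad1 and Fkbp6 lower by 4.76 and 4.80. The exception was Tdrd1, a Tudor protein of the piRNA pathway, with 8.60, 8.12 and 8.42 CPM at day 3 and 2.58, 2.37 and 2.67 CPM at day 0.

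Among 22 imprinted genes 12 rose and 8 fell, 8 and 2 of them by at least 2-fold. Peg3 had 248, 295 and 296 CPM at day 3 against 54.6, 52.2 and 51.6 CPM at day 0, and Nnat and Ndn rose by 3.79 and 2.22. The growth inhibitor gene Cdkn1c, Phlda2 and Peg10 fell by 1.61, 1.11 and 0.99. In the two-cell-like list all 12 tested genes fell by at least 2-fold, Zscan4d among them with 0.0146, 0.0136 and 0.0547 CPM at day 3 and 3.00, 4.62 and 3.25 CPM at day 0. These genes belong to multicopy families, and 50% of the sequence windows of Zscan4d occur in other genes.

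Markers of other cell types were listed as well, and in bulk RNA fewer cells of a type and less RNA per cell cannot be told apart. Of 25 extraembryonic endoderm genes 14 rose and 10 fell, 8 and 6 of them by at least 2-fold. The basement membrane genes Nid1 and Lama1 fell by 3.45 and 3.08, while Apob had 24.8, 25.2 and 32.2 CPM at day 3 and 2.25, 2.03 and 2.04 CPM at day 0, and Ttr, with 1 count at day 0, had a ratio of 629 (95% counting interval 111 to 24500). Of 10 tested neural genes 5 rose and 3 fell, 4 and 2 of them by at least 2-fold. Nes and Sox11 rose by 2.95 and 3.31, and Sox1, the earliest neural marker, had 1.11, 0.680 and 0.766 CPM at day 3 against 23.5, 21.5 and 20.9 CPM at day 0. All 11 tested fibroblast and feeder genes rose, 6 of them by at least 2-fold, and their summed level was 91.9 to 104 CPM at day 3 and 38.4 to 44.2 CPM at day 0, of which Tagln made 39.3, 49.9 and 47.4 CPM at day 3. Col1a1, the collagen that defines fibroblasts, lay at 1.02 to 1.37 CPM at day 3. Blood and endothelial markers summed to 32.5 to 33.2 CPM at day 3 and 105 to 106 CPM at day 0, and of 11 tested 1 rose and 7 fell, 1 and 5 of them by at least 2-fold. Pecam1, which stem cells also express, fell by 3.68, and Flt1 rose by 4.02. Trophoblast markers summed to 305 to 403 CPM at day 3 against 87.2 to 92.1 CPM at day 0, and of 10 tested 6 rose and 3 fell, 4 and 2 of them by at least 2-fold. Eomes, which the streak also expresses, made 186, 267 and 264 CPM of this sum at day 3. Tead4, which acts early in trophoblast, fell by 3.08. The part of these markers in the other results was not tested.

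Transcripts of the mitochondrial genome fell in 12 of 15 cases, 2 of them by at least 2-fold, and rose in none. Without replicate 2 or without replicate 3 at day 3, 7 of them fell, and by the DESeq2 test 4 did. The 16S ribosomal RNA gene mt-Rnr2 took 11, 5.64 and 5.64% of all counts at day 3 and 14.8, 11 and 11.5% at day 0. Replicate 1 at day 3 lay just below the lowest day 0 library, and the log2FC of mt-Rnr2 was -0.84 with it and -1.25 without it. Leaving the mitochondrial genome out of the fit gave 14247 called genes.

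The change over 3 days in the knockout line was then set against that in wild type. An interaction, the log2FC of the Quaking KO line minus that of wild type, was called for 3172 of 19949 genes (15.9%), 1885 with a higher change in the Quaking KO line (9.45%) and 1287 with a lower one (6.45%). At 2-fold or more it was called for 578 genes (2.9%), 437 higher (2.19%) and 141 lower (0.707%). In wild type alone 14173 genes were called between the days (71%), 5813 of them with at least 2-fold (29.1%). In the same 12 libraries the lines differed by at least 2-fold for 168 genes at day 3 (0.842%) and for 904 at day 0 (4.53%), fewer at day 3 than at day 0. Of the 437 genes with a higher change, 345 differed by 2-fold between the lines at day 0 alone, 5 at day 3 alone, 1 on both days and 86 on neither. At day 0 all 346 that differed were lower in the Quaking KO line. For genes that differed at day 0 alone, the definition of a higher change largely fixes this sign, so it is not a separate result. Of the 141 with a lower change, 41 differed at day 0 alone, 21 at day 3 alone, 3 on both days and 76 on neither. These counts describe where the called genes lay and use the same libraries as the call.

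**Figure D3:**
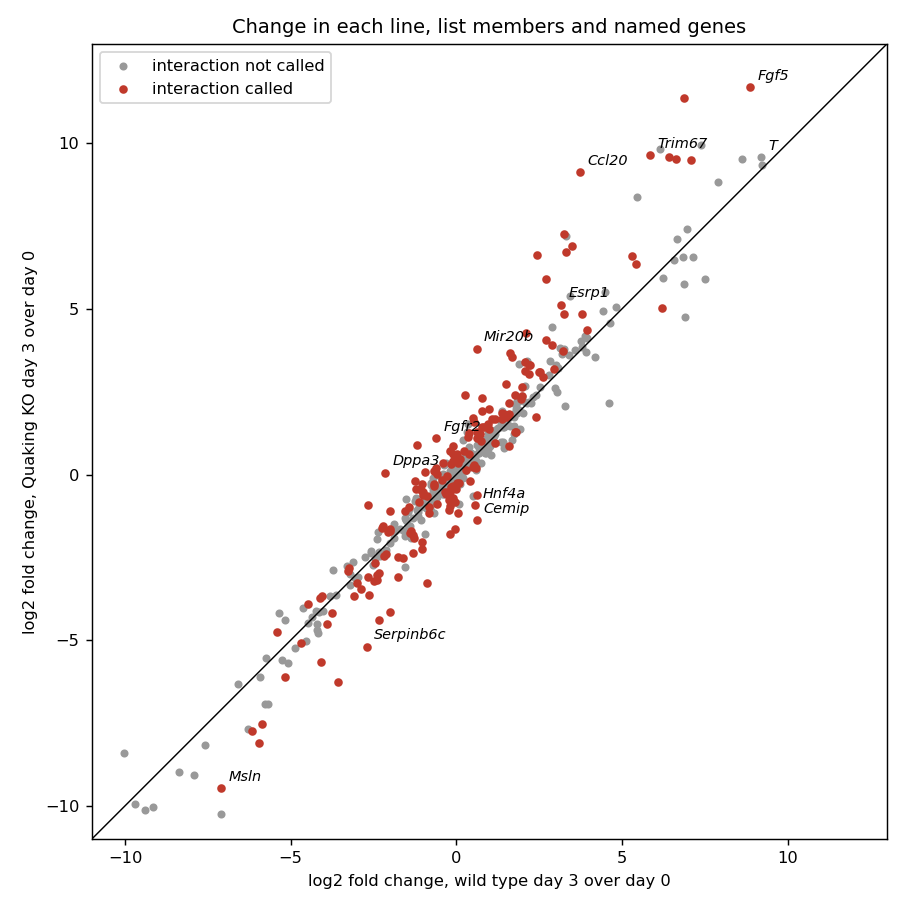
Log2 fold change (day 3 over day 0) in the Quaking KO line against that in wild type for 506 list members and named genes tested in both. Red points are the 182 whose interaction was called, and the line marks equal change. Most points lie near the line, with Trim67, Ccl20 and Esrp1 above it and Serpinb6c, Cemip and Msln below it.

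Among the largest interactions on the higher side, Trim67, Ccl20 and Gabra3 had few or no counts in the knockout stem cells. Trim67 had 34.1, 37.8 and 35.9 CPM at day 3 and 0.0678, 0 and 0.0629 CPM at day 0 in the Quaking KO line, against 27.1, 28.4 and 26.9 CPM at day 3 and 0.482, 0.436 and 0.497 CPM at day 0 in wild type (interaction 3.79 ± 0.37, adjusted p = 1.52e-06). Cysltr1, a leukotriene receptor, had an interaction of 3.21, and the endocytosis gene Epn3, the GABA transporter gene Slc6a11, the claudin gene Cldn1 and the interferon-induced gene Oasl2 had 4.01, 4.20, 3.42 and 3.41. Those of Ccl20 (5.42) and Gabra3 (4.52) rest on no count in the knockout line at day 0, and each was lost in 5 of the 12 fits that left out a library. In the other direction Serpinb6c, a serine protease inhibitor gene, had 0.540, 0.435 and 0.451 CPM at day 3 and 17.2, 17.0 and 18 CPM at day 0 in the Quaking KO line, against 1.08, 1.43 and 1.17 CPM at day 3 and 7.53, 8.05 and 8.65 CPM at day 0 in wild type (interaction -2.48 ± 0.17). Cemip, which is needed to break down hyaluronan, fell in the Quaking KO line (log2FC -1.38) with a log2FC of 0.61 in wild type. C1qtnf9, Msln, Usp26, Sh3tc2, Xaf1 and Kctd16 had interactions between -2.70 and -2.06.

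Esrp1, Dusp4 and Fgfr2 were lower than wild type at day 0 with no called difference at day 3. Esrp1 had 79.4, 82.1 and 78.7 CPM at day 3 and 9.26, 8.50 and 9.02 CPM at day 0 in wild type, so that its interaction was 1.96 ± 0.08 (adjusted p = 8.51e-11). Between the lines it differed by a log2FC of 0.09 at day 3 (adjusted p = 0.216) and -1.87 at day 0 (adjusted p = 1.15e-12). Of the 20 epithelial to mesenchymal genes 8 had a higher and 4 a lower change than in wild type, so the list moved in both directions. Over all genes 9.45% had a higher and 6.45% a lower change. The higher ones included Grhl2 (1.14), Cldn7 (1.07) and Epcam (0.62), and the keratin gene Krt18 of the trophoblast list had 1.00. In the FGF and ERK list 10 of 22 genes had a higher change and none a lower one, where 9.45% and 6.45% of all genes did. Dusp4 had an interaction of 1.56, and differed between the lines by a log2FC of 0 at day 3 (adjusted p = 0.998) and -1.55 at day 0 (adjusted p = 1.19e-10). Dusp6 and Spry1 had interactions of 0.66 and 0.61. Fgfr2 had 9.95, 8.25 and 8.98 CPM at day 3 and 4.10, 4.48 and 4.20 CPM at day 0 in the Quaking KO line, against 8.45, 8.98 and 8.71 CPM at day 3 and 13.9, 12.5 and 13.3 CPM at day 0 in wild type. Its change was thus positive in the knockout line and negative in wild type (log2FC -0.60), and the lines differed by a log2FC of 0.06 at day 3 (adjusted p = 0.744) and -1.63 at day 0 (adjusted p = 6.91e-11). Lef1 (1.61) and Wnt8a (2.38) also had higher changes, Fst a lower one (-1.18).

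In the extraembryonic endoderm list 10 of 25 genes had a lower change in the knockout line than in wild type and 2 a higher one. Over all genes the shares were 6.45% and 9.45%, and the median interaction of the list was -0.27. Lama1 had 45.9, 34.9 and 39.7 CPM at day 3 and 353, 330 and 333 CPM at day 0 in the Quaking KO line, against 102, 104 and 102 CPM at day 3 and 358, 364 and 323 CPM at day 0 in wild type (interaction -1.32 ± 0.10). The lines therefore differed at day 3 (log2FC -1.36, adjusted p = 4.98e-10) with no called difference at day 0 (log2FC -0.04, adjusted p = 0.689). Sox7, a transcription factor of this tissue, had -1.21, and the matrix genes Sparc and Col4a1 had -0.83 and -0.55. Hnf4a had 1.93, 1.90 and 2.24 CPM at day 3 and 3.68, 3.75 and 4.12 CPM at day 0 in the Quaking KO line, against 3.72, 4.22 and 4.59 CPM at day 3 and 2.82, 2.65 and 3.00 CPM at day 0 in wild type. The tomosyn gene Stxbp5 had 27.2, 25.9 and 25.6 CPM at day 3 in wild type, a difference between the lines of 1.26 at day 3 (adjusted p = 2.48e-11) and 0.12 at day 0 (adjusted p = 0.197). Snap25 had an interaction of 2.17, at low levels.

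Pluripotency, germline and imprinted genes also differed in their change. For the lists here, the shares over all genes were 6.45% with a lower change and 9.45% with a higher one. Of 18 naive pluripotency genes 7 had a lower change in the Quaking KO line and 4 a higher one. Tbx3 had 7.95, 7.55 and 7.68 CPM at day 3 and 93.9, 94.6 and 97.6 CPM at day 0 in the Quaking KO line, against 7.60, 8.88 and 7.43 CPM at day 3 and 49.4, 49.2 and 51.5 CPM at day 0 in wild type. The interaction was -0.98 for Tbx3, -0.92 for Klf4 and -0.44 for Nanog, which in wild type had 405, 403 and 407 CPM at day 3 and 394, 411 and 408 CPM at day 0. Dppa3 had 0.952, 0.528 and 0.642 CPM at day 3 and 2.82, 3.41 and 3.18 CPM at day 0 in wild type, and its interaction was 2.21 ± 0.28. Of 15 germline genes 7 had a higher change and none a lower one, with Tdrd1 at 1.22, Ddx4 at 0.78 and Mael at 0.65. In wild type Ddx4 had 11.1, 11.7 and 11 CPM at day 3 and 25, 28.0 and 25.6 CPM at day 0, against 15.8, 16.0 and 18 CPM at day 0 in the knockout line. Of 22 imprinted genes 8 had a higher change and none a lower one. Pax6, an early neural gene, had 2.14, 2.20 and 1.98 CPM at day 3 and 3.66, 4.11 and 4.09 CPM at day 0 in the Quaking KO line, against 1.90, 1.74 and 1.83 CPM at day 3 and 11.9, 12.1 and 11.1 CPM at day 0 in wild type (interaction 1.77 ± 0.12).

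**Figure D4:**
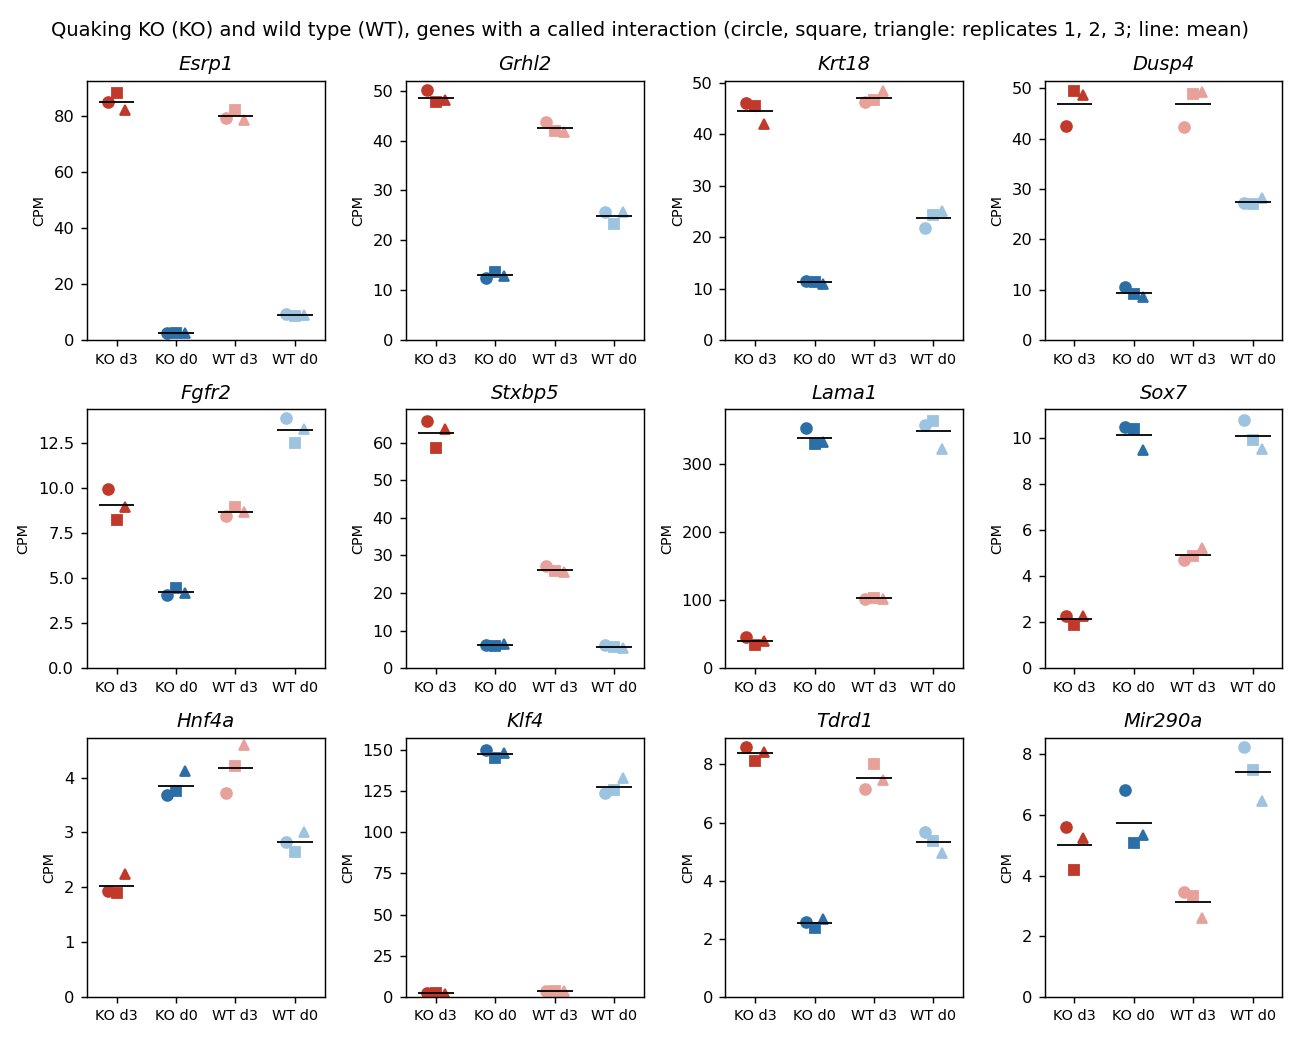
CPM in each library of 12 genes with a called interaction, in the Quaking KO line (KO) and wild type (WT) at day 3 (d3) and day 0 (d0), on axes that start at 0. Symbols are replicates 1, 2 and 3 and lines are means of 3 libraries. The lines lie apart at day 0 and close together at day 3 for Esrp1, Dusp4 and Fgfr2, and the other way round for Stxbp5 and Lama1.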

How the data were processed

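Each library is 1 table of whole-number counts per gene, deposited by the authors without normalization. Per the submitters' processing notes, the reads were demultiplexed with bcl2fastq 2.17.1.14 and aligned with STAR 2.5.3a to the mouse genome GRCm38. How reads were assigned to genes is not given in the sources used here (neither the program, nor the use of strand, nor the annotation version), and overlaps between opposite strands cannot be resolved. All 51826 gene identifiers were kept, and 51633 (99.6%) were named from the GENCODE annotation in the reference by their identifier without version.

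Genes were filtered with filterByExpr (minimum count 10, minimum total 15), scaled by TMM and tested with edgeR 4.0.16 (quasi-likelihood test, R 4.3.3) on the 6 Quaking KO libraries. The interaction with wild type and the differences between lines were tested on 12 libraries, and printed CPM use the scaling of that fit. A gene was called at a Benjamini-Hochberg adjusted p under 0.05 over all tested genes, and in some counts also at a change of at least 2-fold. The alternatives included DESeq2 1.42.0. CPM are not corrected for gene length. Levels are therefore not compared between genes, except in sums over a list and a gene's part of them, which gene length affects. A floor is 3 counts over a group, and intervals and floors cover counting error only.

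The labels call the samples biological replicates without saying more, so p-values measure the spread between these samples. Genes named by rule were the STAR genes, the 12 with the highest and the 12 with the lowest fold change among called genes with at least 1 CPM and no overlap, up to 3 rising and 3 falling called members of each list, members called against their list, and the 8 largest interactions in each direction. Other named genes were chosen after their values were seen, the microRNA lists too. The compared groups, the lists and the tests were chosen with earlier results of these data known. The share of a gene's sequence found elsewhere was taken over windows of 50 bases. Some genes that meet the rule are not reported here.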

Additional observations from a re-analysis of the deposited data

Results flagged for a closer look

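The results below were picked out because the change from day 0 differed between the Quaking KO line and wild type by the interaction test (edgeR quasi-likelihood, adjusted over 19949 genes), which was called for 3172 genes in all. Values are the change in the Quaking KO line minus the change in wild type, on the log2 scale.

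Among genes picked for the size of the difference, higher values were found for Ccl20 (5.42), Gabra3 (4.52), Slc6a11 (4.20), Epn3 (4.01), Trim67 (3.79), Cldn1 (3.42), Oasl2 (3.41) and Cysltr1 (3.21). Lower values were found for C1qtnf9 (-2.70), Serpinb6c (-2.48), Msln (-2.37), Usp26 (-2.37), Sh3tc2 (-2.16), Xaf1 (-2.15), Kctd16 (-2.06) and Cemip (-1.99). Of these, Ccl20 and Gabra3 had no count in the Quaking KO line at day 0.

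Of epithelial genes, Esrp1 had 1.96, Grhl2 1.14, Cldn7 1.07, Epcam 0.62 and Krt18 1. In the whole epithelial to mesenchymal list 8 of 20 genes had a higher change and 4 a lower one. Of FGF and ERK genes, Fgfr2 had 1.69, Dusp4 1.56, Dusp6 0.66 and Spry1 0.61. The extraembryonic endoderm genes Hnf4a (-1.49), Lama1 (-1.32), Sox7 (-1.21), Sparc (-0.83) and Col4a1 (-0.55) had the opposite sign. In that list 10 of 25 genes had a lower change and 2 a higher one.

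Vesicle fusion genes gave 1.13 for Stxbp5 and 2.17 for Snap25. The loci Mir290a and Mir295 gave 1.05 and 1.03, where sequence shared with other annotation was 50% and 100% of the windows. Among pluripotency genes Dppa3 had 2.21, Nanog -0.44, Klf4 -0.92 and Tbx3 -0.98. Signalling genes gave 1.61 for Lef1, 2.38 for Wnt8a and -1.18 for Fst. The STAR genes Khdrbs1 and Qk had 0.50 and -0.37, the germline genes Tdrd1, Ddx4 and Mael 1.22, 0.78 and 0.65, and Pax6 1.77.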

How the results depend on the processing

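The counts of called genes over the whole table stayed within 1.5 times the reported value under every alternative run. Of the counts for single gene lists, 1981 did so and 119 did not. For day 3 against day 0 in the Quaking KO line, 13459 genes were called by the DESeq2 test, 16121 with no filter on low counts, 12090 among protein-coding genes and 13661 to 14452 when a library was left out. Of the 14270 genes, 13434 were also called by the DESeq2 test and 13360 without replicate 3 at day 0, the lowest of the fits that left out a library, all in the same direction. The interaction was called for 3040 to 3612 genes under the other settings and for 2508 to 3229 genes when 1 of 12 libraries was left out. At an unadjusted p under 0.05, 14545 genes were called between the days and 5585 for the interaction. Replicate numbers in the labels do not say what they share. Same-numbered Quaking KO libraries at day 3 and day 0 deviated together with r of 0.1, 0.06 and 0, each best matched by its own number in replicates 1 and 2 only. Within wild type the r were 0.12, 0 and 0.12. Between the lines they were 0.21, 0.06 and 0.05 at day 3 and 0.01, -0.02 and -0.02 at day 0. With the replicate number as a block 14646 genes were called (7371 higher, 7275 lower) and the interaction for 3612 genes. Among single genes, calls were lost in some fits for Epha2, Vamp2, Mir291a and Mir293 and gained for Cdx1, mt-Nd3 and Mir290a. The interactions of Ccl20 and Gabra3 were each lost in 5 fits that left out a library, those of Cldn1 and Msln in 2 and that of C1qtnf9 in 1, without wild-type replicate 3 at day 3. Most list counts that moved were of 5 genes or fewer. For the change higher than in wild type, the miR-290 loci gave 2 to 3 in place of 5 in 7 fits that left out a library, and cholesterol synthesis 6 in place of 3 among protein-coding genes and 5 with the block. A change lower than in wild type was called for 1 to 2 genes of the FGF list in 3 settings and for 1 imprinted gene without replicate 1 of the Quaking KO line at day 0, where the reported counts were 0. Mitochondrial transcripts that fell numbered 4 by DESeq2 and 7 without replicate 2 or 3 at day 3, in place of 12. No result reversed its direction. For genes at or near 0 counts in a group, depth limits the size of the fold.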

Other observations

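In a further list, of primordial germ cell genes, 7 of 10 tested members fell and 1 rose, beside 37.1% and 37.7% of all genes. At 2-fold or more 3 fell, where 15.6% of all genes did, and none rose. The median log2FC was -0.49. Ifitm3, an interferon-induced membrane protein gene also used as an early germ cell marker, had 19.4, 23.7 and 26.7 CPM at day 3 and 95.1, 97.1 and 104 CPM at day 0. Of 15 p53 targets 7 rose and 6 fell, beside 37.7% and 37.1% of all genes.

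A few genes changed in opposite directions in the Quaking KO line and wild type, and were chosen after their values were seen. Acta2, smooth muscle actin, rose in the Quaking KO line (log2FC 0.88) and fell in wild type (log2FC -1.19, adjusted p = 2.23e-06). Bcl2l11, which encodes the pro-apoptotic protein BIM, had 27.4, 24.4 and 25.7 CPM at day 3 and 16.3, 15.6 and 15.5 CPM at day 0 in the Quaking KO line, against 29.3, 27.7 and 27.2 CPM at day 3 and 33.3, 31.0 and 30.8 CPM at day 0 in wild type (interaction 0.88).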
